A study of Mus musculus with 74 samples.

Results

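The genes described here are the 3 subunits of the epithelial sodium channel (ENaC), Scnn1a, Scnn1b and Scnn1g, and the water channels Aqp1, Aqp3 and Aqp4. They are 6 of 22095 gene symbols listed across the 5 expression tables used, and were found by symbol. They were picked as genes of airway and alveolar fluid clearance with the Lung met and primary tumor (PT) means of these same tables already known, so the differences between Lung met and PT below are descriptions and carry no test. Means of both groups were found for 5 of the 6 genes in at least 1 table, and for 4 of them (Scnn1a, Scnn1b, Scnn1g and Aqp1) in all 5 tables. Aqp3 had means in 2 tables, and Aqp4 was not analysed here.

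RNA sequencing was performed on PTs and lung metastases (Lung mets) of female mice that carried an oncogene expressed in the mammary gland, and 74 samples were labelled. In the oncogenic driver cohort the mice were on the FVB background and carried MMTV-Her2/neu (Her2; 6 PT and 6 Lung met samples), MMTV-Myc (Myc; 6 and 6) or the C3(1)-TAg transgene (C3Tag; 7 and 7). In the PyMT-F1 cohort, FVB males with MMTV-PyMT were crossed to AKR/J, BALB/cJ or SEA/GnJ females, and the F1 daughters gave 6 PT and 6 Lung met samples per cross. The MMTV and C3(1) promoters direct the transgene to mammary epithelium among other tissues, and within a model all mice carried the same transgene. In the titles each animal gave 1 PT and 1 Lung met sample, so the groups are matched by animal, but the group means do not keep that match. Driver-cohort PTs were removed by surgery and the mice were then kept for a set further period or up to a humane endpoint, the PTs of 1 animal were pooled, and metastases were taken as whole nodules from lung. The genotype and source labels of the PyMT-F1 samples do not match their titles, and the titles were followed. The PyMT-F1 table deposited under the name AKR is called by that name below, because which cross it holds was not settled, and it may be a cross other than these 3. Each table gives 1 mean per group, made by the authors from normalized counts, and no value of a single sample, so no mean below has an SD, no difference could be set against the spread between animals, and sequencing depth is unknown. The Myc table holds no group mean and was not analysed here. Tables were normalized separately, so levels are compared within a table, and between tables only by the position of a gene among the genes of its own table.

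ENaC is a sodium channel of the apical membrane of tight epithelia, built from an alpha (Scnn1a), a beta (Scnn1b) and a gamma (Scnn1g) subunit. In airways and alveoli, sodium enters the cell through ENaC and leaves through the sodium pump, and water follows, which clears liquid from the air spaces. The alpha subunit is needed for channel function, and beta and gamma raise the number of channels at the surface. Aquaporins are water pores. In lung, Aqp1 lies mainly in the endothelium of small vessels and is also abundant in red blood cells, Aqp3 and Aqp4 lie in airway epithelium, and Aqp5 in alveolar type 1 cells and gland cells. Aqp3 also carries glycerol.

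Scnn1g and Scnn1b are neighbours on mouse chromosome 7 in the GRCm38 annotation, both on the plus strand. Scnn1g spans chr7:121734479-121768475 and Scnn1b spans chr7:121865038-121918514, 96.6 kb apart, with 0 annotated protein-coding genes between them. Scnn1a lies at chr6:125320659-125344943 and Aqp1 at chr6:55336432-55348555, both on the plus strand, and Aqp3 at chr4:41092722-41098183 on the minus strand. The neighbouring pair is shown because Scnn1g and Scnn1b differed in their difference between Lung met and PT. The lines below give the 250 bases before the RefSeq start of each gene (GRCm38.p6, plus strand, chr7:121734229-121734478 for Scnn1g and chr7:121864788-121865037 for Scnn1b), 5′ to 3′, with each CG pair in capitals:
Scnn1g: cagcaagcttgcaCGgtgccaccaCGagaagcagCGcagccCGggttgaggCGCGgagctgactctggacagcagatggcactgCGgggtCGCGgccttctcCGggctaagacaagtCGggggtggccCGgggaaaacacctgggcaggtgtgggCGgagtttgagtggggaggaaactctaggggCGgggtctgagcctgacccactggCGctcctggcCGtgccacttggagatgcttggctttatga
Scnn1b: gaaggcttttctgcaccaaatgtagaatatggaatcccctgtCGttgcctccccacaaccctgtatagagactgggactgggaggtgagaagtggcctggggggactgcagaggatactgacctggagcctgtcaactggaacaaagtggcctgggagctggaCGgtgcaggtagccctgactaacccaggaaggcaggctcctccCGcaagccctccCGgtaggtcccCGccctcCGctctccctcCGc
The Scnn1g window holds 16 CG pairs and is 65.2% G or C, and the Scnn1b window holds 7 CG pairs and is 60.8% G or C. Over 32851 RefSeq promoter windows of the same length the median was 6 CG pairs and 52.4% G or C. The Scnn1g window had more CG pairs than 74.6% of them, and the Scnn1b window more than 53.7%. The steroid receptor half-site was searched as TGTTCT on both strands, which is AGAACA on the other strand, and 16.1% of all windows held it. It had 0 matches in the windows of Scnn1b, Scnn1g, Aqp1 and Aqp3, which says only that these letters are not in these 250 bases.

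Scnn1a and Scnn1g were at least 2-fold higher in Lung mets than in PTs in all 5 tables, while Scnn1b and Aqp1 each passed 2-fold in 2 of 5. A difference of at least 2-fold between the group means is the threshold used. Of the members with means, 2 of 4 passed it upward in Her2, 4 of 5 in C3Tag, 2 of 4 in BALB, 3 of 4 in SEAGN and 4 of 5 in the table deposited as AKR, and 0 passed it downward in any table. Among all genes with both means above 0, 2.38% were at least 2-fold higher and 1.43% at least 2-fold lower in Her2 (18208 genes). In C3Tag 7.42% were higher and 1.7% lower (19320 genes). In BALB 2.26% were higher and 2.4% lower (17270 genes), and in SEAGN 2.86% were higher and 3.22% lower (17351 genes). In the table deposited as AKR 7.31% were higher and 1.73% lower (17829 genes). With both C3Tag columns scaled to the same sum every C3Tag log2 quotient was 0.80 higher, and 30.3% of genes were at least 2-fold higher and 0.564% lower, so that 98.2% in place of 81.4% of the 2-fold genes were higher. A C3Tag log2 quotient between -0.80 and 0 therefore changes direction with that scaling, while the same scaling moved the other tables by at most 0.11. The members were selected on this difference, so nothing is read from their counts against these shares.

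**Figure D1:**
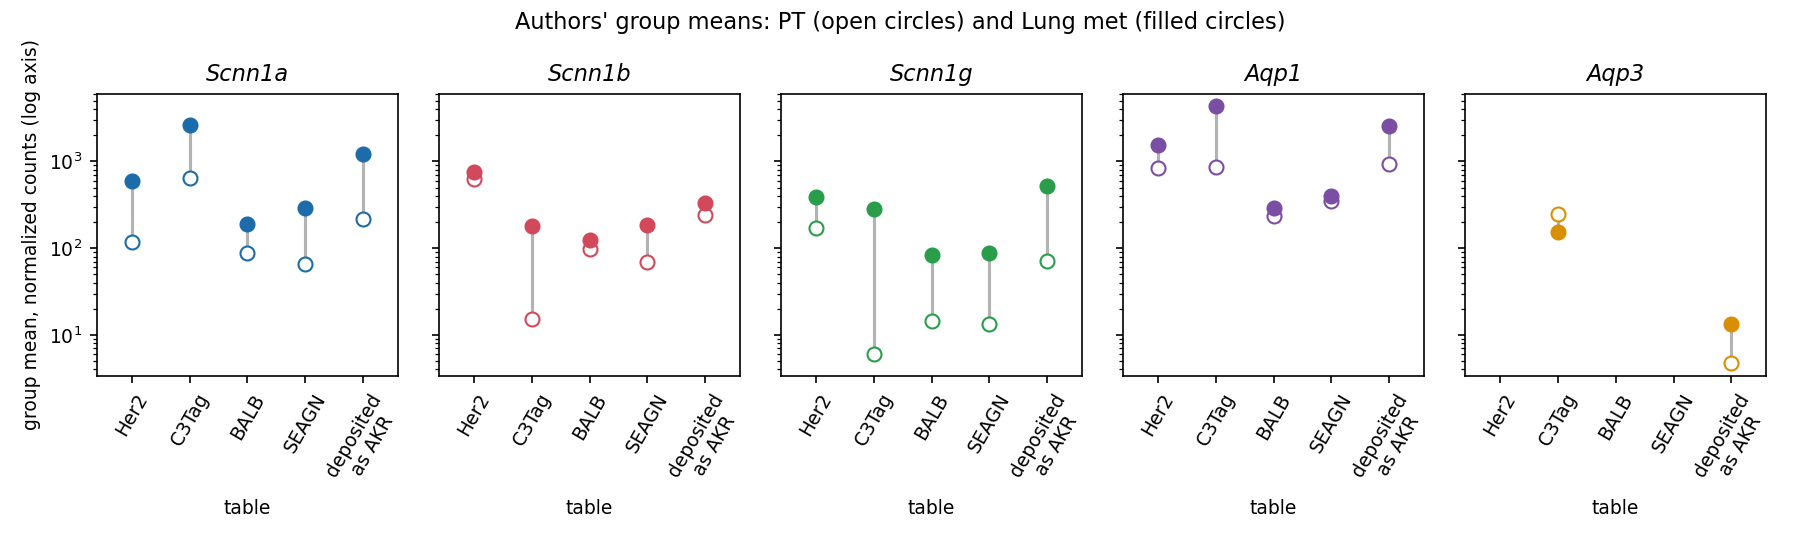
Group means of normalized counts on a log axis for the 5 members with values, in each of 5 tables, with PT as open and Lung met as filled circles; a grey line joins the pair, and no error is drawn because no value of a single sample was given. Scnn1a and Scnn1g are separated in all 5 tables, Scnn1b most in C3Tag (15.2 and 180), and Aqp3 has values in 2 tables only.

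Scnn1a, the alpha subunit, had group means of 117 in Her2 PTs and 591 in Her2 Lung mets, a log2 quotient of 2.33. In C3Tag the means were 645 in PTs and 2646 in Lung mets (log2 quotient 2.04), and by rank C3Tag held the highest Scnn1a position of the 5 tables in both groups. The means were 87.5 and 192 in BALB (1.13), 66.3 and 290 in SEAGN (2.13), and 217 and 1231 in the table deposited as AKR (2.51). The Lung met mean was therefore higher in every table, by the least in BALB. Ranked by level within each table, Scnn1a stood above 32.3% to 61.5% of genes in PTs and above 55.5% to 88.9% of genes in Lung mets. Its log2 quotient exceeded that of 98.0% to 99.5% of genes over the 5 tables.

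Scnn1g, the gamma subunit, had the highest quotient among the members in 4 of the 5 tables, Her2 being the other. In C3Tag its mean was 6.04 in PTs and 281 in Lung mets, a 46.4-fold difference (log2 quotient 5.54) that ranked 14 among 19320 genes. The PT mean there was among the lowest in the table, above 2.38% of genes, so this quotient leans on a small denominator, and it was 4.18 on the log2 scale when 10 was added to both means. The means were 14.5 and 83.0 in BALB (2.52), 13.5 and 88.0 in SEAGN (2.7) and 72 and 515 in the table deposited as AKR (2.84). Her2 PTs already had a mean of 172, against 386 in Her2 Lung mets (1.17). By rank, Scnn1g stood above 2.38% to 36.4% of genes in PTs but above 41.3% to 50.7% in Lung mets, so the 5 Lung met ranks lay within 9.4 percentage points and the 5 PT ranks within 34.0.

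Scnn1b, the beta subunit, showed the least uniform pattern. In C3Tag its mean was 15.2 in PTs and 180 in Lung mets (log2 quotient 3.57), and in SEAGN 70.0 and 183 (1.39). In the other tables both groups were close, with means of 627 and 758 in Her2 (0.27), 98.5 and 124 in BALB (0.33), and 240 and 335 in the table deposited as AKR (0.48). Scnn1b ranked above 9.87% of genes in C3Tag PTs and above 56.6% in Her2 PTs, while its Lung met ranks ran from 37.9% to 60.8%. The log2 quotient of Scnn1g exceeded that of Scnn1b by 0.90 in Her2, 1.97 in C3Tag, 2.19 in BALB, 1.32 in SEAGN and 2.36 in the table deposited as AKR. The gaps in C3Tag, BALB and SEAGN lean on low PT means. With 10 added to both means, Scnn1g and Scnn1b were at 4.18 and 2.91 in C3Tag. They were then at 1.93 and 0.30 in BALB and at 2.06 and 1.27 in SEAGN. Scnn1g stayed above Scnn1b in every table.

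**Figure D2:**
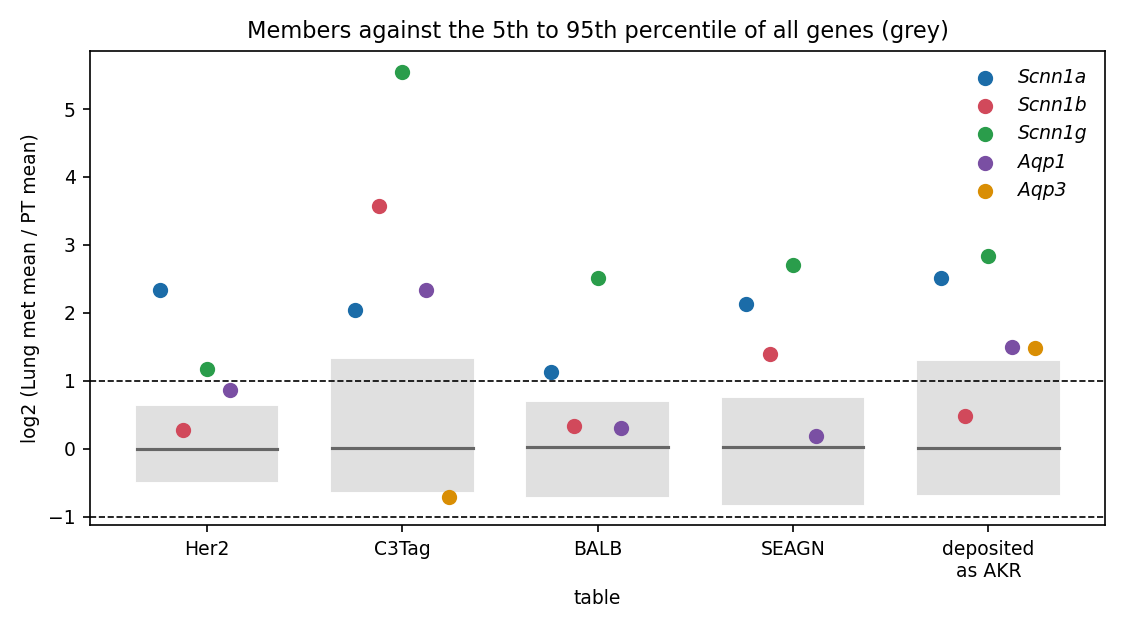
Log2 of the Lung met mean over the PT mean for each member (coloured points) in each table; the grey box spans the 5th to 95th percentile of all genes, the grey line is their median, and dashed lines mark 2-fold. Scnn1a and Scnn1g lie above the grey box in all 5 tables, while Scnn1b lies inside it in Her2, BALB and the table deposited as AKR.

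To compare the subunits with each other, each group mean was divided by the length of the gene's merged exons (GENCODE M21), 4.13 kb for Scnn1a, 2.63 kb for Scnn1b and 2.99 kb for Scnn1g. The BALB and SEAGN tables carry gene identifiers of a BALB/cJ strain annotation, whose exon lengths were not used here, so the per-kb order in these 2 tables rests on lengths from another annotation. On this scale Scnn1b had the highest level of the 3 subunits in PTs of 4 tables, for example 238 per kb against 28.4 for Scnn1a and 57.3 for Scnn1g in Her2. C3Tag differed, where PTs had 156 per kb of Scnn1a, 5.76 of Scnn1b and 2.02 of Scnn1g. In Lung mets Scnn1a was highest in 3 tables and Scnn1b in 2, but in BALB (46.4 for Scnn1a and 46.9 for Scnn1b) and SEAGN (70.3 and 69.5) the pair lay so close that the order cannot be read without an error. The difference per kb, Lung met minus PT, was largest for Scnn1a in all 5 tables and smallest for Scnn1b in 4, SEAGN being the exception. In BALB, Scnn1a and Scnn1g lay close, so their order there cannot be read without an error either. For Scnn1a, Scnn1b and Scnn1g in that order, this difference was 115, 49.7 and 71.8 per kb in Her2, and 484, 62.5 and 91.8 in C3Tag. It was 25.3, 9.5 and 22.9 in BALB, 54.2, 42.9 and 24.9 in SEAGN, and 245, 36.1 and 148 in the table deposited as AKR. Thus the subunit with the highest quotient in 4 tables, Scnn1g, was not the one with the largest difference per kb, though in BALB it lay close to Scnn1a.

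**Figure D3:**
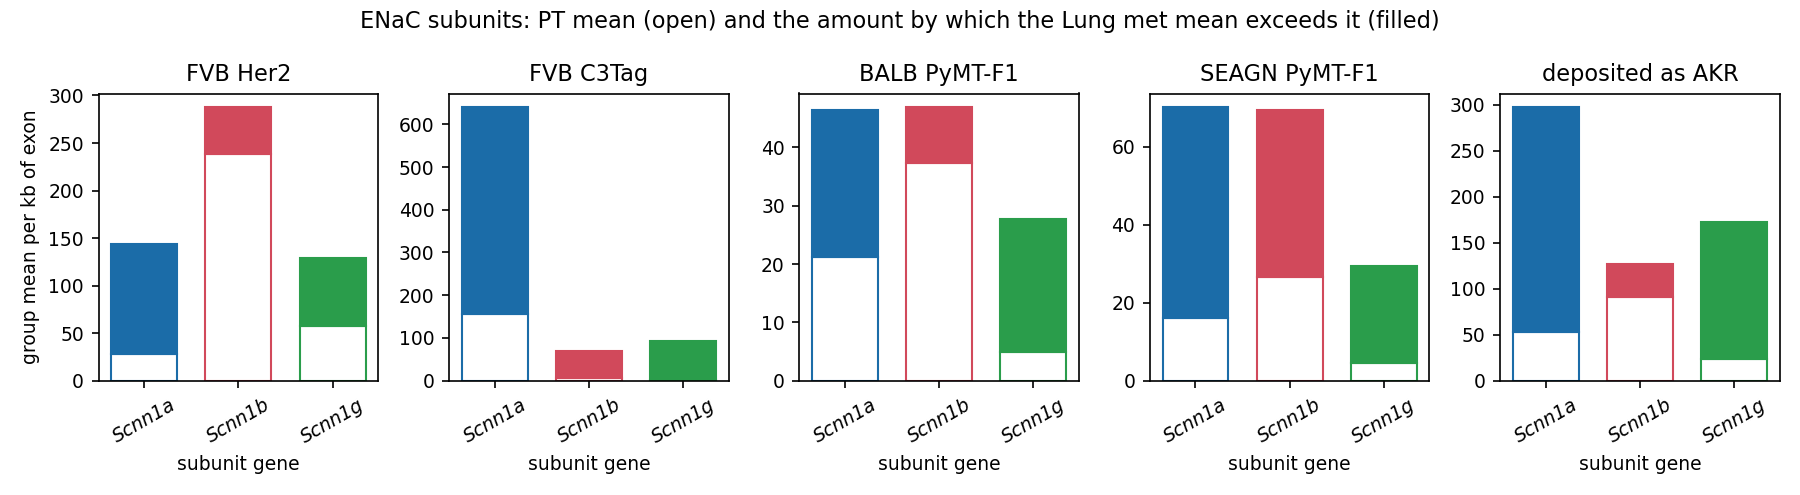
Group means per kb of merged exon for the 3 ENaC subunits, 1 panel per table with its own axis starting at 0; the open part of each bar is the PT mean and the filled part is the amount by which the Lung met mean exceeds it. The filled part is largest for Scnn1a in every panel, though close to that of Scnn1g in BALB. The open part is largest for Scnn1b in every panel but C3Tag.

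Aqp1, the water channel of small-vessel endothelium and red blood cells, had the narrowest span of PT ranks among the 4 members found in all tables, above 63.3% to 73.7% of genes in its table. Its means in PTs and Lung mets were 860 and 4326 in C3Tag (log2 quotient 2.33) and 926 and 2600 in the table deposited as AKR (1.49). In Her2 they were 845 and 1547 (0.87), just under 2-fold. In BALB they were 238 and 293 (0.30) and in SEAGN 349 and 399 (0.19), so the groups were nearly level there. The 8 endothelial markers had median log2 quotients of 1.44 in C3Tag and 1.83 in the table deposited as AKR, against 0.86 in Her2, 0.72 in BALB and 0.90 in SEAGN. Their summed level went from 2781 in PTs to 8329 in Lung mets in C3Tag, from 2458 to 9507 in the table deposited as AKR, from 3318 to 5660 in Her2, from 952 to 1550 in BALB and from 1068 to 1863 in SEAGN. All 6 red blood cell markers had means in 3 tables, with median log2 quotients of 2.22 in C3Tag, 1.84 in the table deposited as AKR and 0.81 in Her2. Their summed level was 617 in PTs and 2760 in Lung mets in C3Tag, 10066 and 40389 in the table deposited as AKR, and 33536 and 59693 in Her2. Only 2 of the 6 had means in BALB (median -0.60) and 1 in SEAGN (0.10). C3Tag and the table deposited as AKR had the largest Aqp1 quotients and the largest endothelial medians, but not in the same order. Her2 stood above SEAGN in the Aqp1 quotient and below it in the endothelial median. Over the 3 tables with all 6 red blood cell markers, their medians had the same order as Aqp1. The part of endothelial and red blood cells in the Aqp1 difference was not tested. In bulk tissue, fewer cells of a type and less RNA per cell cannot be told apart.

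Aqp3, the glycerol-conducting water channel, had means of 248 in PTs and 152 in Lung mets in C3Tag (log2 quotient -0.71), which was the only negative value among the 22 member values. It was 0.09 when both C3Tag columns were scaled to the same sum, in which the gene Gm22614 made up 38.3% of the PT sum. Without that gene in the sum, an alternative chosen after seeing the data, it was -0.60. Centred on the median of genes with an average mean of at least 10, it was -0.72. The direction changed only with the scaling that counts Gm22614. Of 7 markers of basal and myoepithelial cells of the mammary duct, 5 had means in C3Tag, with a median log2 quotient of -0.81. Krt14 (-1.51) and Krt17 (-1.09) were at least 2-fold lower and Trp63 was at -0.81, but Acta2 (0.07) and Myh11 (0.87) were not lower. The summed level of the 5 was 8472 in PTs and 3972 in Lung mets. With the same-sum scaling, which adds 0.80 to each log2 quotient, neither Krt14 nor Krt17 was at least 2-fold lower. In the table deposited as AKR, 4 of the 7 had means, with a median of -0.34 and sums of 6576 and 6309. In Her2, BALB and SEAGN the medians were 0.96, 0.30 and 0.80. Their part in the Aqp3 difference was not tested. In the table deposited as AKR its means were 4.73 in PTs and 13.2 in Lung mets (1.48), above 1.87% and 8.33% of genes, and the log2 quotient was 0.65 after 10 was added to both means, which is under 2-fold. Aqp5, a water channel of gland and alveolar type 1 cells and no member, was abundant in PTs, at 57616 in Her2, 1995 in C3Tag, 3463 in BALB, 2195 in SEAGN and 13368 in the table deposited as AKR. Its log2 quotients were -0.13, 1.69, -0.66, 0.73 and 0.06 in that order, so Aqp5 passed 2-fold in C3Tag alone. The 5 other aquaporins with means gave 20 values, of which Aqp5 in C3Tag and Aqp9 in Her2 (1.32) were at least 2-fold higher and Aqp2 in C3Tag (-1.30) and Aqp9 in SEAGN (-1.61) at least 2-fold lower in Lung mets.

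ENaC subunits are expressed by alveolar and airway epithelium. The medians of the alveolar marker lists were at least 2-fold higher in Lung mets in every table. The airway markers were less uniform, and few of them had means. The 8 alveolar type 1 markers, which include Aqp5, had median log2 quotients of 2.69 in Her2, 2.68 in C3Tag, 2.32 in BALB, 2.86 in SEAGN and 3.55 in the table deposited as AKR, with 5 to 7 of 8 at least 2-fold higher. Their summed level went from 61085 in PTs to 62215 in Lung mets in Her2, where Aqp5 made most of it, from 7385 to 21306 in C3Tag, from 4597 to 4639 in BALB, from 3179 to 6760 in SEAGN and from 18034 to 36775 in the table deposited as AKR. Without Aqp5 the sums were 2.16 to 4.90 times as high in Lung mets as in PTs. Ager, the receptor abundant on type 1 cells, went from 62.5 to 1847 in Her2, from 80.4 to 2166 in C3Tag, from 17.6 to 290 in BALB, from 16.7 to 580 in SEAGN and from 214 to 9532 in the table deposited as AKR. It was not at 0 in PTs of any table.

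Of 9 alveolar type 2 markers, 6 had means, and 4 of the 6 were at least 2-fold higher in every table but C3Tag, where 5 were. Their median log2 quotients were 1.23 in Her2, 6.15 in C3Tag, 2.86 in BALB, 4.08 in SEAGN and 3.50 in the table deposited as AKR. C3Tag had the highest type 2 median and the highest Scnn1g and Scnn1b quotients, whereas its Scnn1a quotient (2.04) was below that of Her2 (2.33), the table with the lowest type 2 median. Their summed level went from 22645 to 25399 in Her2, from 6223 to 44604 in C3Tag, from 3628 to 7013 in BALB, from 3606 to 9037 in SEAGN and from 9865 to 30728 in the table deposited as AKR. The surfactant genes Sftpc, Sftpb and Sftpa1 were not analysed here. Lamp3, a lysosomal membrane protein of lamellar bodies, went from 18.6 to 680 in Her2, from 31.7 to 7280 in C3Tag, from 3.12 to 187 in BALB, from 3.70 to 577 in SEAGN and from 140 to 3428 in the table deposited as AKR. Abca3, the lipid transporter of lamellar bodies, was already at 1709 to 5907 in PTs and had log2 quotients from -0.21 to 1.88. Of 8 airway markers, 2 or 3 had means per table, with median log2 quotients of 1.43 in Her2, 1.12 in C3Tag, 0.26 in BALB, 0.75 in SEAGN and 1.88 in the table deposited as AKR. Cyp2f2, a cytochrome of club cells, was at least 2-fold higher in all 5 (28.4 and 204 in Her2, 89.3 and 181 in BALB) and was the highest of them in each table. The ciliated cell genes were less uniform, with Tppp3 at 0.02 in Her2, 1.12 in C3Tag, 0.05 in BALB, 0.75 in SEAGN and 1.88 in the table deposited as AKR, and Foxj1 at 0.94, 0.26, -0.42 and 0.64 in C3Tag, BALB, SEAGN and the table deposited as AKR. The airway sums went from 209 to 388 in Her2, 504 to 1378 in C3Tag, 160 to 258 in BALB, 113 to 481 in SEAGN and 329 to 1247 in the table deposited as AKR.

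Mammary luminal markers had medians between -0.03 and 0.35, but single markers spread widely. Krt8, a luminal keratin, had log2 quotients from -0.02 to 0.64. In C3Tag, Epcam was at -0.68 and Elf5 at -0.61. Both turn positive with the same-sum scaling, in which the gene Gm22614 made up 38.3% of the PT sum. Krt19 was at 3.81 in Her2 and 1.23 in BALB but at 0.40 in C3Tag and 0.35 in SEAGN. The milk protein gene Wap was at 2.68 in Her2 and 2.82 in BALB but at -1.61 in SEAGN and -1.39 in the table deposited as AKR. Csn2 was at 1.47 in Her2, 2.45 in SEAGN and 0.47 in the table deposited as AKR. The part of lung epithelium in the Scnn1a, Scnn1b and Scnn1g differences was not tested.

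**Figure D4:**
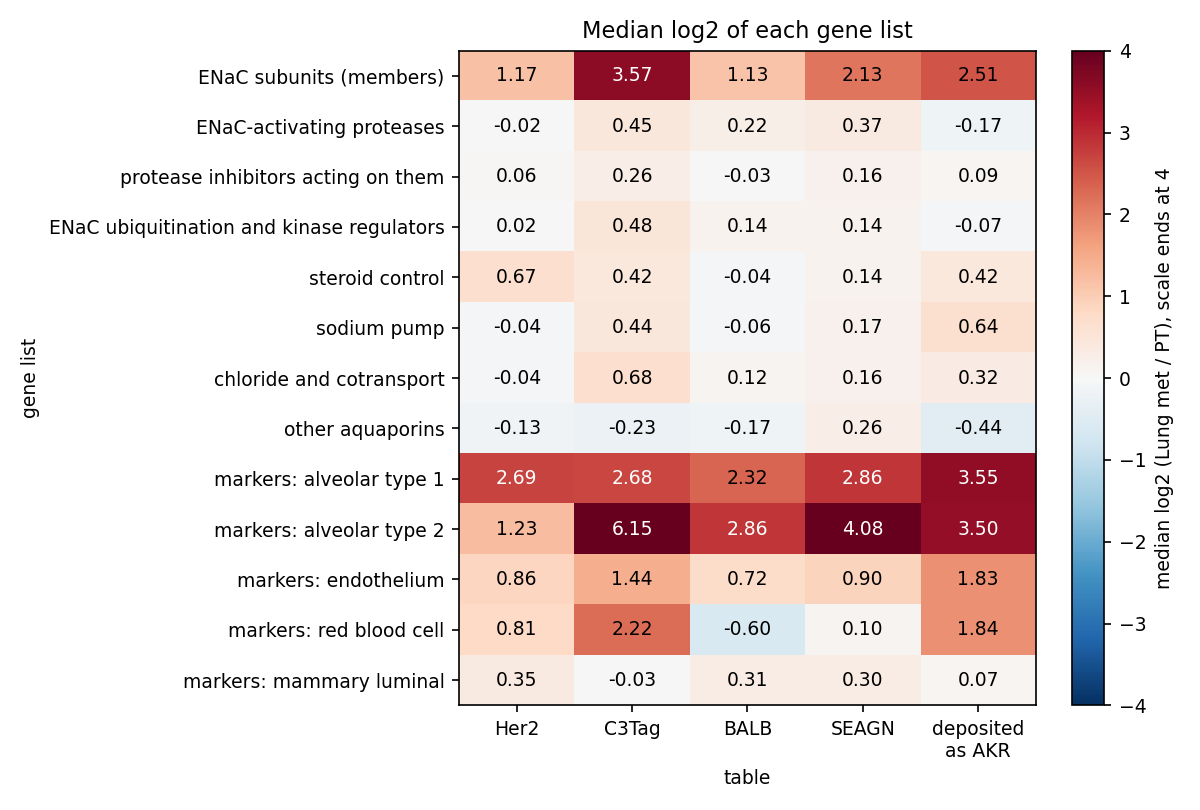
Median log2 quotient (Lung met mean over PT mean) of gene lists in each of the 5 tables, printed in each cell and coloured on a scale that ends at 4 in either direction. The medians of the 3 ENaC subunits (1.13 to 3.57) and of the alveolar marker lists are above 1 in every table. Scnn1b by itself is at 0.27 in Her2, 0.33 in BALB and 0.48 in the table deposited as AKR. The medians of the protease, inhibitor, kinase, steroid, pump and chloride transport lists lie between -0.17 and 0.68. The subunits were picked with this difference known, so nothing is read from their contrast with these lists.

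The pathway lists held genes that act on ENaC, its relatives, other ion transporters and the other aquaporins. Of 56 genes in 8 lists, 48 had means and gave 225 gene-by-table values, of which 22 (9.78%) were at least 2-fold higher and 11 (4.89%) at least 2-fold lower in Lung mets, with a median log2 quotient of 0.13. Over all genes these shares ran from 2.26% to 7.42% higher and from 1.43% to 3.22% lower by table. The 7 proteases that cleave or activate the channel gave 33 values, 0 past 2-fold in either direction. Prss8 (prostasin) had log2 quotients of 0.08 in Her2, 0.45 in C3Tag, 0.15 in BALB, 0.36 in SEAGN and -0.17 in the table deposited as AKR, and the convertase Furin 0.04, 0.90, 0.07, 0.38 and -0.21. St14 (matriptase) had -0.02 in Her2, -0.18 in C3Tag and -0.23 in the table deposited as AKR. The 3 inhibitors of these proteases gave 15 values and likewise 0 past 2-fold.

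Among the ubiquitination and kinase regulators, 3 of 39 values were at least 2-fold higher, all in C3Tag (Wnk1 2.34, Wnk4 1.35 and Tsc22d3 1.36), and 1 was at least 2-fold lower (Wnk4 in SEAGN, -1.15). Nedd4l, the ubiquitin ligase that removes ENaC from the membrane, had log2 quotients of 0.20 in Her2, 0.06 in C3Tag, 0.14 in BALB, 0.14 in SEAGN and -0.04 in the table deposited as AKR. Sgk1, the aldosterone-induced kinase that inhibits Nedd4l, had 0.07, 0.91, 0.34, -0.19 and 0.23, and Nr3c2, the mineralocorticoid receptor, had 0.67, 0.22, -0.20, -0.40 and -0.27 in the same order. None of these 3 genes passed 2-fold in any of the 5 tables.

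Hsd11b1, which regenerates active glucocorticoid from its inert form, was the only pathway gene at least 2-fold higher in 4 or more tables. Its means were 94.2 in PTs and 427 in Lung mets in Her2 (log2 quotient 2.18), 99.9 and 445 in C3Tag (2.15), 34.3 and 65.3 in BALB (0.93), 47.6 and 130 in SEAGN (1.44) and 140 and 781 in the table deposited as AKR (2.48). These 4 values were all of the 2-fold values among the 19 of the steroid list.

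The sodium pump list gave 53 values, 7 at least 2-fold higher and 5 at least 2-fold lower. Of the lower values, 3 were Atp1b2 in BALB (-1.27) and SEAGN (-1.08) and Fxyd6 in the table deposited as AKR (-1.13). Atp1b1, the beta subunit of the pump, had log2 quotients of -0.27 in Her2, 1.04 in C3Tag, -0.06 in BALB, 0.78 in SEAGN and 0.40 in the table deposited as AKR. The chloride and cotransport list gave 38 values, 6 higher and 3 lower, the latter all in BALB (Slc12a2 -1.23, Clcn2 -1.08 and Slc4a4 -1.59). Cftr, the chloride channel that works beside ENaC in airway, had means of 132 and 227 in C3Tag (0.78), 5.56 and 15.3 in BALB (1.46) and 15.3 and 96.0 in the table deposited as AKR (2.64). The acid-sensing channels, relatives of ENaC, gave 8 values, 0 past 2-fold.

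Finally, the genes whose 5 log2 quotients lay nearest to those of each member were found among 11795 genes, by the root mean square of the 5 differences. These were genes with a symbol that occurred once, and an average of both means of at least 10, in each of the 5 tables. Nearest to Scnn1a were Hsd11b1 (0.332), Fam189a2 (0.41) and Icam1 (0.428), the leukocyte adhesion ligand. Nearest to Scnn1b were Rgcc (0.389), Slc6a14 (0.423), an amino acid transporter, and Slc26a9 (0.457), a chloride transporter of the epithelial surface. Slc26a9 had log2 quotients of -0.25 in Her2, 3.81 in C3Tag, 1.14 in BALB, 1.16 in SEAGN and 0.47 in the table deposited as AKR. Nearest to Scnn1g were Atp7b (0.52), a copper pump, Cd36 (0.615), a fatty acid receptor, and Tmem252 (0.693), none as near as those of the other members. Nearest to Aqp1 were Fbln5 (0.225), an elastic fibre protein, Adamtsl5 (0.241) and Fut4 (0.292). Likeness over 5 tables is a description of the values, and no test was made of it.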

How the data were processed

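PTs and Lung mets were sequenced on Illumina libraries. The labels describe stranded total RNA with ribosomal depletion and the methods an mRNA kit. The submitters' processing notes name STAR 2.7.8a and DESeq2 with build mm39, whereas the methods name mm9 and mm10, so the build behind the tables is not settled and no coordinate was taken from them. The BALB and SEAGN tables list BALB/cJ strain gene identifiers and the other tables reference mouse identifiers. The deposited signal columns hold 1 mean per group that the authors fitted by least squares to normalized counts, and the normalization method is not given in the sources used here. The tables also hold the authors' p-values, false discovery rates, ratios and fold changes, which were not used. The Myc table holds p-values and false discovery rates only.

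From the 2 group means of each gene the quotient Lung met over PT and its log2 were computed (Python 3.11.15, numpy 2.4.6, pandas 2.3.3, figures with matplotlib 3.10.9), with genes at 0 in either group left out and no pseudocount. No test was run, because no replicate values were analysed. The quotient and the 2-fold count returned the set values on simulated means without noise, which checks the arithmetic only. A difference counted from 2-fold. Besides the members, pathway genes were named if at least 2-fold in the same direction in 4 or more of 5 tables or if set down by name (Aqp5, Prss8, St14, Furin, Nedd4l, Sgk1, Nr3c2, Cftr, Atp1b1), together with the 3 nearest genes per member. The single marker genes, and the other pathway genes past 2-fold in under 4 tables, were named after their values were seen. Some genes of the pathway lists are counted but not reported singly here. The members and lists were chosen with earlier results of these data known. Gene positions and exon lengths came from GENCODE M21 and promoter windows from RefSeq, matched by symbol. No promoter entry was matched for Scnn1a.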

Additional observations from a re-analysis of the deposited data

How the results depend on the processing

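Under a threshold of 4-fold in place of 2-fold, 1 member was higher in Lung mets in Her2, 1 in BALB and 2 in the table deposited as AKR. Scaling both columns to the same sum raised the members' median log2 quotient in C3Tag to 3.134, where the gene Gm22614 made up 38.3% of the PT sum and 0.000194% of the Lung met sum. The same scaling moved the share of 2-fold genes that were higher from 81.4% to 98.2% in C3Tag. Without the largest PT gene in the sum, an alternative chosen after seeing the data, all 22 member values stayed within 1.5-fold of those reported. They did so also under a pseudocount of 1 and under centring on the median of genes with an average mean of at least 10. A pseudocount of 10 and the same-sum scaling each moved 5 of 22 member values by more than that, the latter all in C3Tag. The type 1 medians without Aqp5, also added after seeing the data, were 2.82 to 3.86. No paired analysis was possible because the tables hold group means only. For the same reason no replicate could be left out, depth is unknown, and low means such as those of Aqp3 and of Scnn1g in C3Tag PTs have no stated precision.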
